A study of Mus musculus with 3 samples.

Results

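The mitochondrial ribosomal protein genes, whose symbols start with Mrpl or Mrps followed by a digit, were described in group 2 innate lymphoid cells (ILC2s). Entrez gene IDs of the count table were matched to mouse symbols, and protein-coding genes with such a symbol were kept. This gave 78 genes of 27179 gene IDs, 49 with an Mrpl and 29 with an Mrps symbol. The rule reads names only and uses no measured value. The study sequenced RNA of ILC2s from 3 wild-type C57BL/6 mice, 1 library per mouse, in a single group without a treatment or genotype contrast. Cells were sorted as CD45+, CD90.2+, CD127+ and KLRG1+, and cells with B220, CD11b, CD11c, NK1.1, CD3, CD5 or CD8 were excluded. Neither the tissue nor the animals' age or sex is stated by the sources used here. Libraries are called mouse 1, 2 and 3 after the sample number in their titles.

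Mitochondria carry their own ribosome, which translates the few mRNAs of the mitochondrial genome into core subunits of the respiratory chain and ATP synthase. Its ribosomal RNAs are made inside the organelle, whereas all its proteins are encoded in the nucleus, made in the cytosol and imported. Some of these proteins have counterparts in bacterial ribosomes, and others are found only in mitochondria. ILC2s are lymphocytes of tissues that release type 2 cytokines although they carry no antigen receptor of their own.

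By the structural naming of the ribosome, 51 members belonged to the large subunit, including Mrps30 and Mrps18a despite their symbols, and 26 to the small subunit. The remaining member, Mrps36, is named with the ribosome but encodes a subunit of the α-ketoglutarate dehydrogenase complex. A bacterial counterpart was assigned to 46 members, and 32 were assigned as specific to mitochondria, Mrps36 included. Mrps18a and Mrps18b, relatives of bacterial S18 that sit at other sites of the mitochondrial ribosome, were counted with the latter. The genes lay on 17 chromosomes, with 11 on chromosome 11, 8 on chromosome 17 and 7 on chromosome 6, and 33 of the 78 (42.3%) started head to head with another protein-coding gene on the opposite strand within 1000 bases. Among all 20881 protein-coding genes of the count table with a match in the GENCODE M21 annotation, 11.0% did so. In 15 of the 33 the transcribed stretches of the pair overlapped at their starts in the same annotation.

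Promoter windows from RefSeq (GRCm38.p6), which run from 250 bases before to 50 after a gene's start, were found for 69 of the 78 members. They were searched on both strands for the letters GCGCA and GCGC parted by any single base (NRF1, a regulator of nuclear genes for mitochondrial proteins), CCGGAAG (the ETS family), AAGATGGC (YY1) and TATAAA (the TATA box). A gene was counted once if any of its windows matched, and some genes had several windows. The ETS letters occurred in 26 members (37.7%), against 12.9% of 17492 protein-coding genes with a window. The NRF1 letters occurred in 13 members (18.8%, against 7.17%) and the YY1 letters in 12 (17.4%, against 3.57%). At least 1 of these 3 was present in 43 members (62.3%), against 21.0% of all genes with a window. TATAAA was present in 5 members (7.25%, against 14.8%). Median GC content, averaged over the windows of each gene, was 58% for the members and 56.3% for all genes with a window. The YY1 letters began at or after the start base in 8 of 12 matches. The median over all 12 was 15 bases past the start base, while the NRF1 and ETS matches lay at medians of 49 and 17 bases before it. A match of letters is a description of the window and shows no binding.

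The 5 windows that follow show these letters in members whose neighbours or levels are described further on. Letters of the NRF1, ETS and YY1 searches on either strand are in capitals, and each window reads 5′ to 3′ on the gene's own strand. Mrps12 (chr7:28741772-28742071, minus strand) faces the gene of the mitochondrial seryl-tRNA synthetase, and Mrps11 (chr7:78782881-78783180, plus strand) faces another member, Mrpl46. Mrpl32 (chr13:14612988-14613287, minus strand) faces a proteasome gene, Psma2. Mrpl36 (chr13:73330759-73331058, plus strand) faces Ndufs6, and its window is placed on a RefSeq start inside the annotated gene (73328503 to 73332178). Mrps21 (chr3:95871465-95871764, minus strand) was among the members with the highest level.
Mrps12: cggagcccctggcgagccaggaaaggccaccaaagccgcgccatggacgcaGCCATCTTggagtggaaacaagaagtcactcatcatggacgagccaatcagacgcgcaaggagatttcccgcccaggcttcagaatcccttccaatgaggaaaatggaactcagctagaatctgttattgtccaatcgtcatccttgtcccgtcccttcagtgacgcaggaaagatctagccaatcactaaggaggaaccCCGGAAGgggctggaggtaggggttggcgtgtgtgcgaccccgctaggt
Mrps11: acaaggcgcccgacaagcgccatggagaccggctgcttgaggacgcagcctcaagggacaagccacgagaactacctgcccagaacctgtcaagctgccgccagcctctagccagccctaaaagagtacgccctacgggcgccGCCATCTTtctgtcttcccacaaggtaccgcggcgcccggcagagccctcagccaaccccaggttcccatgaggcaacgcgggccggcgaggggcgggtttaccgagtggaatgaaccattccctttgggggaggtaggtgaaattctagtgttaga
Mrpl32: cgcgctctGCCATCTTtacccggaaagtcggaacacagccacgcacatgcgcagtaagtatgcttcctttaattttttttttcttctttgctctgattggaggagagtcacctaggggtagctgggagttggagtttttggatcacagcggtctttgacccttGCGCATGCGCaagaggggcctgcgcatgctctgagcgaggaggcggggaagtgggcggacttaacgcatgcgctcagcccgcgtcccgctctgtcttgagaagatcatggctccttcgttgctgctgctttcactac
Mrpl36: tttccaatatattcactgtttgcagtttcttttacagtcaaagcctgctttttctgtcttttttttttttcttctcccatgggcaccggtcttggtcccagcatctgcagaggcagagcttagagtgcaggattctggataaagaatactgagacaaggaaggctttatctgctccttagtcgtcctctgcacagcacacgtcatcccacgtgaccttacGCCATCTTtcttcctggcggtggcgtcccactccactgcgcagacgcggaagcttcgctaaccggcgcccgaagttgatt
Mrps21: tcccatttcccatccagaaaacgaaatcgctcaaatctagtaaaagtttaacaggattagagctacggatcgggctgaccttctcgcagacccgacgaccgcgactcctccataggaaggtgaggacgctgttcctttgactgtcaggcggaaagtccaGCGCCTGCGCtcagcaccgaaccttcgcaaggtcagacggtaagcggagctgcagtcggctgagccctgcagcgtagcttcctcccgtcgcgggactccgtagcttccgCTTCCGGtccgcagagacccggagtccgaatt

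The Mrps12 window holds the ETS letters on the gene's own strand and the YY1 letters on the other strand. Mrps11 and Mrpl36 hold only the YY1 letters, on the opposite strand in both. In Mrpl32 the NRF1 match reads the same on both strands, 87 bases before the start, with a YY1 match farther out. Mrps21 holds an NRF1 match before the start and an ETS match after it. The YY1 matches in these windows all lie before the start and on the other strand. They are not typical, since 8 of the 12 YY1 matches in members began at or after the start base.

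The libraries held 22112425, 17819551 and 26374248 counts in mice 1, 2 and 3. Scaled to 1000000 counts per library (CPM), a count of 0 allows a level of up to 3 counts, or 0.132, 0.171 and 0.115 CPM. Between libraries, Pearson's r over 9175 genes was 0.919 to 0.925 on the log2 scale, where genes are not independent replicates. All 8 ILC2 markers were detected, with summed levels of 5798 to 7754 CPM. Immunoglobulin genes took up 1.61%, 5.25% and 9.63% of counts in mice 1, 2 and 3, and 5 of 8 plasma and B cell markers were detected (Igkc, Jchain, Xbp1, Mzb1 and Cd79a). Summed over the 8, those markers had 10721.5, 32178 and 53364 CPM, and each detected marker was highest in mouse 3, while Ms4a1 and Pax5 were at 0 counts. The cells of origin of these transcripts were not tested. In bulk RNA, a change in the number of cells of a type and a change in RNA per cell cannot be told apart, and p-values measure only the spread between these 3 samples.

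Mitochondrial ribosomal protein genes were expressed almost throughout. Of the 78 members, 76 (97.4%) reached 1 CPM in every library, whereas 38.0% of 20983 protein-coding genes did. Their mean level was at least 10 CPM for 73 members, at least 50 CPM for 56 and at least 100 CPM for 29. The median member had 71.9 CPM and the range was 0.617 to 637 CPM. Divided by the summed exon length of each gene, the median was 28.7 CPM per kb, against 4.65 for all protein-coding genes tested. Among detected protein-coding genes the median member stood at the 79.1th percentile of CPM per kb. Together the 78 genes took up 0.757%, 0.846% and 0.717% of the counts of mice 1, 2 and 3. The 95% Wilson intervals were 0.753% to 0.760%, 0.842% to 0.851% and 0.714% to 0.721%. Reads carried no molecular identifiers, so copies of the same molecule cannot be told from separate molecules. The intervals treat every read as independent, cover counting error only and may be too narrow even for that. They did not overlap between the libraries.

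**Figure D1:**
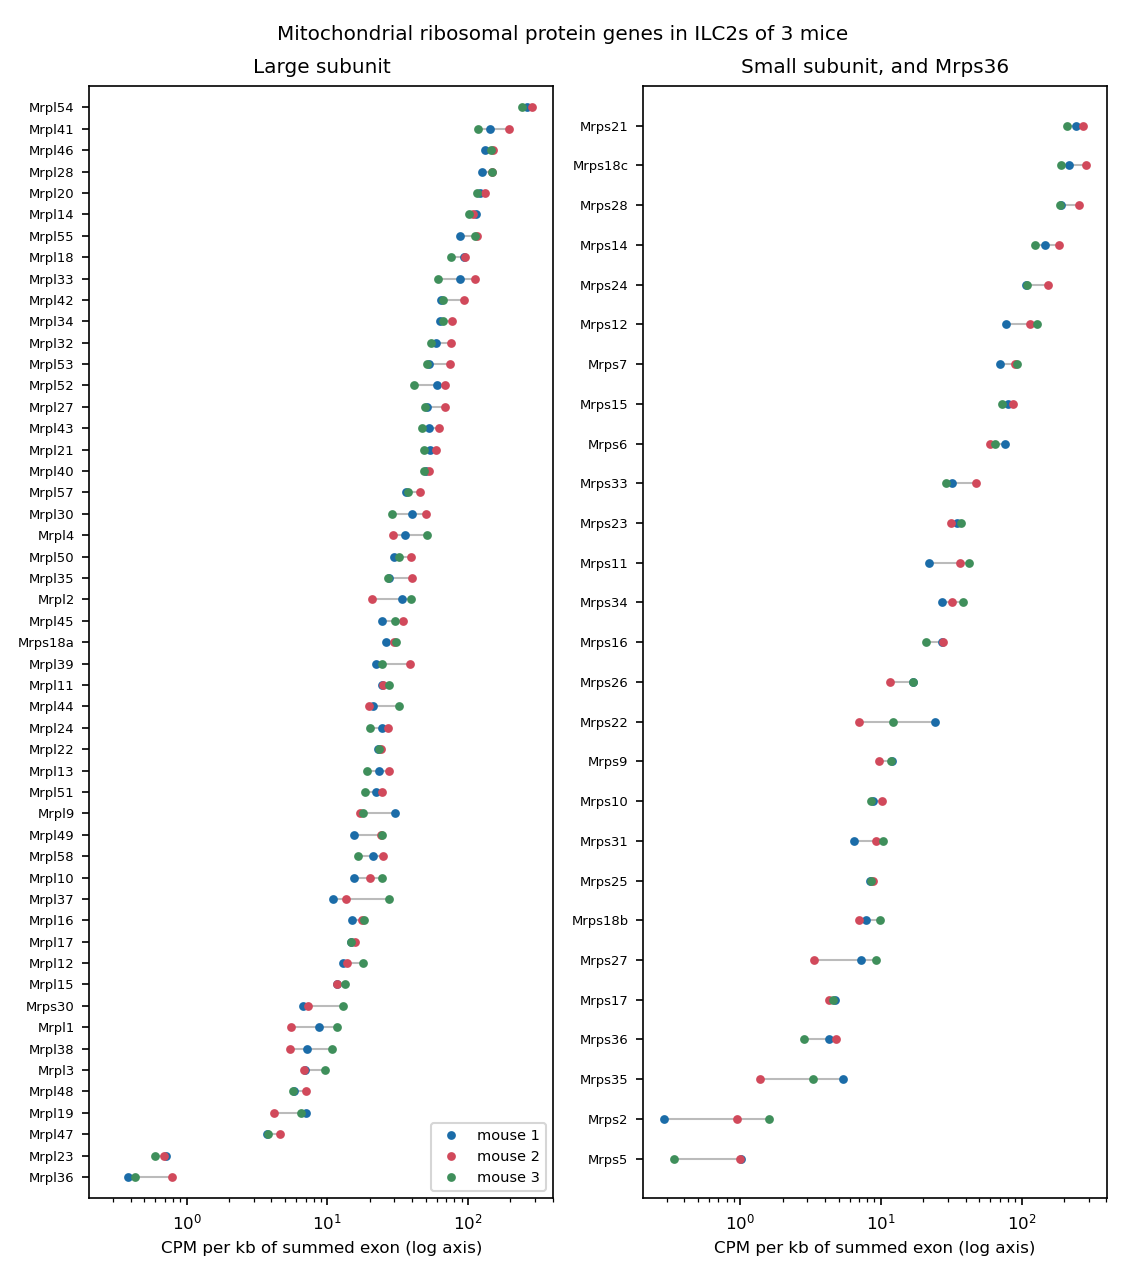
Level of each mitochondrial ribosomal protein gene in CPM per kb of summed exon (log axis), with large-subunit members on the left and small-subunit members and Mrps36 on the right. Points are the 3 mice and grey lines join the lowest and the highest, with Mrpl54 (264) at the top and Mrpl36 (0.531) at the bottom.

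The members with the highest levels per length encode small proteins of both subunits. Mrpl54, a large-subunit protein specific to mitochondria, had 216, 237 and 201 CPM in mice 1, 2 and 3, or 264 ± 21.7 CPM per kb (SD, n = 3). Mrps21, the counterpart of bacterial S21, had 181, 202 and 156 CPM, or 243 ± 31.6 CPM per kb. Mrps18c, a paralogue in the S18 family, had 233, 308 and 206 CPM, or 231 ± 49.1 CPM per kb. In each of the 3 genes mouse 2 was highest and mouse 3 lowest. Within every mouse Mrpl54 was the highest of the 3 per kb of summed exon, but in mouse 2 only by 286.9 against 286.1 for Mrps18c. Mrps18c was above Mrps21 in mouse 2 and below it in mice 1 and 3. Per kb of principal transcript the order of the means was reversed between Mrpl54 (361) and the other genes, Mrps18c (390) and Mrps21 (368). Per kb of summed exon Mrps28 followed with 150, 200 and 147 CPM, or 211 ± 37.7 CPM per kb. Mrpl41, another mitochondria-specific protein of the large subunit, had 127, 175 and 105 CPM (153 ± 40.2 CPM per kb). Mrps14, the counterpart of bacterial S14, had 477, 602 and 406 CPM (152 ± 30.4 CPM per kb). These last 3 were also highest in mouse 2 and lowest in mouse 3.

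Ranks among the members depended on the length used. For 21 of the 78 members the summed exons were over 2 times as long as the principal transcript of the gene. Mrpl33, a small large-subunit protein with a bacterial counterpart, had the highest CPM of all members, with 642, 821 and 449 CPM in mice 1, 2 and 3. Mouse 2 was again highest and mouse 3 lowest. Its summed exons span 7326 bases and its principal transcript 478, so that it ranked 15 of 78 per kb of summed exon (87.0) and 1 of 78 per kb of principal transcript (1333). Mrpl42, specific to mitochondria, stood second on the principal-transcript scale with 413 CPM per kb. Across the 78 members the 2 scales ranked genes alike, with a Spearman coefficient of 0.918. In GRCm38.p6, Mrpl33 lies on chromosome 5 (31613951 to 31622644, plus strand) and Mrpl54 on chromosome 10 (81264722 to 81266926, minus strand).

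Mrpl36 and Mrps2 were the only members below 1 CPM in some library. Mrpl36, the counterpart of the small zinc-binding bacterial L36, had 10, 16 and 13 counts (0.441, 0.910 and 0.499 CPM) in mice 1, 2 and 3. Mrps2, the counterpart of bacterial S2 (chromosome 2, 28465951 to 28471177, plus strand), had 19, 49 and 122 counts (0.838, 2.79 and 4.68 CPM). Mrpl36 was below 1 CPM in all 3 libraries, and Mrps2 was below it in mouse 1 alone. Neither shared any 50-base word of its principal transcript with another gene.

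The 6 lowest members among those detected began with Mrpl23 and Mrps5, both counterparts of bacterial proteins. Mrpl23, at the exit of the tunnel through which new chains leave the ribosome, had 3.49, 3.36 and 2.92 CPM (0.666 ± 0.0613 CPM per kb of summed exon, 4.70 per kb of principal transcript). Of its 50-base words, 76.4% were shared with other genes, mainly a pseudogene named Mrpl23-ps1, so its count is uncertain where reads could be divided or dropped. Mrps5 had 6.66, 6.54 and 2.22 CPM (0.782 ± 0.384 CPM per kb), with 12.4% of words shared, and was lowest in mouse 3. Mrps35 (46.5, 11.9 and 28.2 CPM) and Mrps17 (30.5, 27.9 and 29.6 CPM) reached 3.35 and 4.52 CPM per kb over long summed exons. Mrps35 was far lower in mouse 2 than in the others, whereas Mrps17 was nearly level across the mice. Mrpl47, the counterpart of bacterial L29, had 16.5, 20.3 and 16.8 CPM (4.04 CPM per kb). Mrps36, the dehydrogenase subunit, had 5.43, 6.14 and 3.64 CPM (3.98 CPM per kb), with 36.2% of words shared with other genes. Of all 78 members, 42 had no shared words and 12, among them Mrpl23, Mrps5 and Mrps36, had more than 10%. Across the 78 members the share of such words and the mean CPM had a Spearman coefficient of -0.01.

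Members with assigned roles in the ribosome's work were all detected. The stalk, which recruits the translation factors, was represented by Mrpl10 (26.5, 34.4 and 41.5 CPM in mice 1, 2 and 3), Mrpl12 (19.8, 21.2 and 27.7) and the stalk-base protein Mrpl11 (79.4, 80.0 and 89.1). All 3 were lowest in mouse 1 and highest in mouse 3. Per kb of summed exon they stood at 19.98, 14.9 and 25.7, and per kb of principal transcript at 19.98, 17.4 and 27.2. Mrps12, which lines the decoding centre where codon and anticodon pair, had 81.3, 120 and 135 CPM (108 ± 26.4 CPM per kb) and was likewise lowest in mouse 1. At the tunnel exit, Mrpl22 had 22.5, 23.5 and 23.0 CPM and Mrpl24 had 55.1, 60.5 and 45.7 CPM, or 23.5 and 23.8 CPM per kb. Their levels per kb of summed exon did not differ beyond the spread, and both were above the third exit protein, Mrpl23 (0.666). Per kb of principal transcript Mrpl22, Mrpl24 and Mrpl23 stood at 31.9, 40.2 and 4.70, so the size of the gap depended on the length used. Of the words of Mrpl22, 33.4% were shared with other genes, and of those of Mrpl23, 76.4%, so the counts of both are uncertain. Mrpl45, which anchors the ribosome to the inner membrane, had 63.97, 89.9 and 78.1 CPM (29.8 ± 4.99 CPM per kb). Mrpl58, a built-in peptide release factor that frees stalled chains, had 70.5, 83.0 and 54.8 CPM (20.8 ± 4.24 CPM per kb).

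The 3 paralogues of the S18 family stood at separate levels. Mrps18c had 231 ± 49.1 CPM per kb, Mrps18a (95.8, 110 and 114 CPM) had 28.9 ± 2.61, and Mrps18b (16.3, 14.7 and 20.6 CPM) had 8.24 ± 1.47. Their ranges over the 3 mice did not overlap. Per kb of principal transcript the order was unchanged, at 390, 121 and 15.9. Of the Mrps18b words 30.9% were shared with other genes, and 30.5% of its exons overlapped another gene, so its count is the least certain of the 3.

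The difference in level between large- and small-subunit members depended on how it was measured. The median of log2(CPM per kb + 0.5) over the large-subunit members exceeded that over the small-subunit members by 0.01, -0.01 and 0.22 in mice 1, 2 and 3, a mean of 0.08 ± 0.13 (SD, n = 3). Members with a bacterial counterpart exceeded those specific to mitochondria by 0.30, 0.07 and 0.00, a mean of 0.12 ± 0.16. Both differences lay within the spread between mice. Per kb of principal transcript the first became -0.27 and the second 0.91. Among members without overlapping exons they became 0.82 and -0.19, so the direction of each depended on the choice made, and means in place of medians gave 0.23 for each. No p-value is given for such list medians, since the genes of a list were chosen and are not replicates.

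The 5 mitoribosomal proteins whose genes carry other symbols were all detected. Aurkaip1 had 329 ± 37.1 CPM (187 CPM per kb), Chchd1 147 ± 19.5 (162 CPM per kb) and Gadd45gip1 77.6 ± 15.2 (31.1 CPM per kb). Dap3, a GTP-binding protein of the small subunit, had 76.0 ± 9.57 CPM (11.7 CPM per kb). Ptcd3, a small-subunit protein with pentatricopeptide repeats, had 64.4, 18.3 and 43.4 CPM (6.14 CPM per kb) and was lowest in mouse 2.

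Other lists of nuclear genes for mitochondrial gene expression had lower medians than the ribosomal proteins. Of 14 translation factors 12 were detected, with a median of 2.96 CPM per kb, led by the initiation factor gene Mtif2 (12.3 CPM per kb). Tufm, the gene of the mitochondrial elongation factor Tu, had 1.06, 1.99 and 2.45 CPM in mice 1, 2 and 3, and Taco1, a translational activator, did not reach 1 CPM. Of 22 assembly factors 18 were detected (median 3.30 CPM per kb), led by Rbfa (58.3), which helps mature the small subunit. Of 20 aminoacyl-tRNA synthetase genes and related amidotransferase genes 15 were detected (median 1.63), led by Rars2 (13.7), while Pars2 had 0 counts in each library. Of 13 genes of mitochondrial transcription and mRNA stability 10 were detected (median 3.46), led by Slirp (23.8) and Tfam (22.8), with the helicase gene Twnk and the RNA polymerase gene Polrmt below 1 CPM in mouse 1. The corresponding median of the members was 28.7 CPM per kb.

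**Figure D2:**
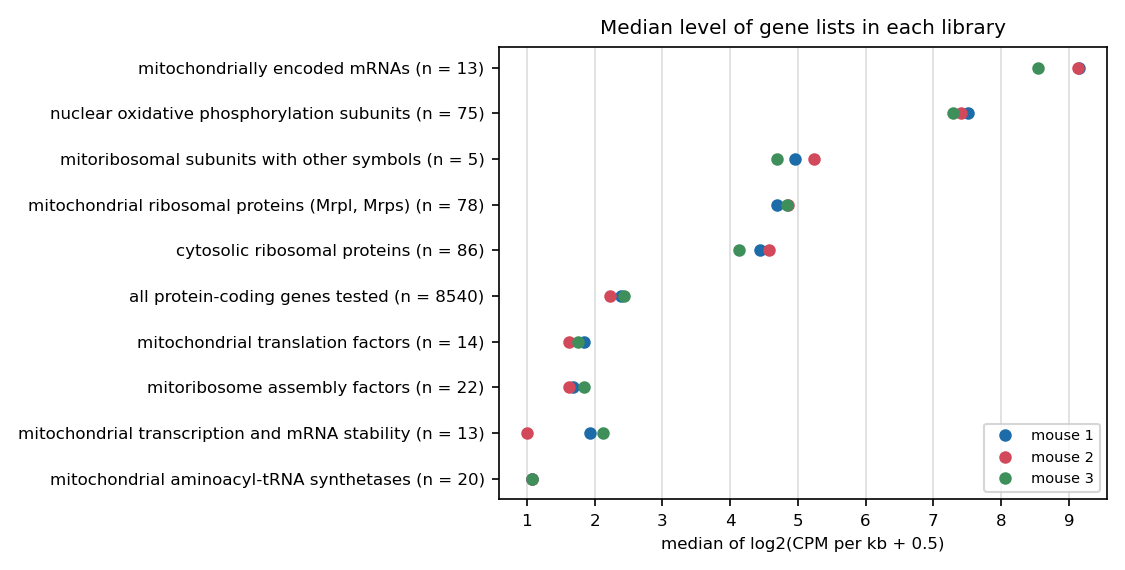
Median of log2(CPM per kb + 0.5) over each gene list in each library, with points for the 3 mice and the number of genes in brackets. The Mrpl and Mrps genes lay at 4.69, 4.86 and 4.84, below the nuclear oxidative phosphorylation subunits and above the lists of translation factors, assembly factors, transcription and mRNA stability, aminoacyl-tRNA synthetases and all protein-coding genes tested. The 5 mitoribosomal genes with other symbols lay at 4.96, 5.24 and 4.69, above the members in mice 1 and 2, and the mitochondrially encoded mRNAs lay highest.

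Nuclear oxidative phosphorylation subunits, which assemble with the products of the mitochondrial ribosome, had higher levels than the members in all 3 mice. The members' median log2 level minus theirs was -2.82, -2.55 and -2.45 in mice 1, 2 and 3, a mean of -2.61 ± 0.20 (SD, n = 3). Of the 75 subunit genes, 73 were detected, with a median of 172 CPM per kb. Cytosolic ribosomal protein genes had a median of 20.1 CPM per kb, and the members exceeded them by 0.25, 0.28 and 0.71, a mean of 0.41 ± 0.26 on the log2 scale. Per kb of principal transcript that difference was -0.0199, so its direction depended on the length used. Cytosolic ribosomal protein genes have many processed copies: a median of 43.9% of their 50-base words were shared with other genes, against 0% for the members. The 37 of 85 with over 50% shared had a median of 16.5 CPM and the other 48 had 116 CPM, not divided by length, and how the counting treated such reads is not stated by the sources used here.

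The RNA parts of the mitochondrial ribosome were also present. The small-subunit RNA mt-Rnr1 had 533, 902 and 425 CPM and the large-subunit RNA mt-Rnr2 had 3422, 5900 and 3226 CPM in mice 1, 2 and 3. Both were highest in mouse 2. Of the 13 mRNAs that this ribosome translates, 9 were detected, led by CYTB (6850 ± 1684 CPM) and ND1 (4642 ± 1140 CPM). COX2, ATP6, ATP8 and ND4L did not reach 1 CPM in every library. How the counting treated reads that map to several genes is not stated by the sources used here. The low counts of these mRNAs are therefore uncertain and do not show that the mRNAs were absent, and their cause was not tested.

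The levels were then compared between the mice. No member was called more variable than genes of its abundance. The test set each gene's quasi-dispersion in edgeR against that of genes of like abundance, by an F test on the upper tail, with p-values adjusted after Benjamini-Hochberg and a threshold of 0.05. It called 0 of 78 members, against 17 of 9175 genes tested (0.185%), and limma also called 0 members. Of the 17 genes 16 were immunoglobulin genes, and among protein-coding genes tested 1 of 8540 was called. At an unadjusted p below 0.05, edgeR gave 2 members of 78, where 4.4% of all genes passed, and limma gave 1. On simulated data for the spread between 3 mice, the test called 8 of 100 genes changed 8-fold in 1 library and 78 of 100 changed 64-fold, so it has little reach for modest changes. All 78 members passed the filter on low counts.

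The 2 members with an unadjusted p below 0.05 were Mrps22 and Mrpl37, both specific to mitochondria. Mrps22, a small-subunit protein (chromosome 9, 98588730 to 98601679, minus strand), had 96.9, 27.7 and 48.5 CPM in mice 1, 2 and 3. It was highest in mouse 1 and lowest in mouse 2, with edgeR's quasi-dispersion F test giving an unadjusted p of 0.0232 and a Benjamini-Hochberg adjusted p of 0.976. Mrpl37, a large-subunit protein (chromosome 4, 107055874 to 107066866, minus strand), had 48.6, 60.2 and 123 CPM. Mouse 3 stood above the other 2 libraries, with an unadjusted p of 0.0455 in the same edgeR test. Next by their ratio to the trend came Mrps35 (46.5, 11.9 and 28.2 CPM), Mrpl33, Mrps2 and Mrps30 (45.0, 48.6 and 85.9 CPM). Mrps35 was ordered like Mrps22, and Mrps2 and Mrps30 were ordered like Mrpl37.

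**Figure D3:**
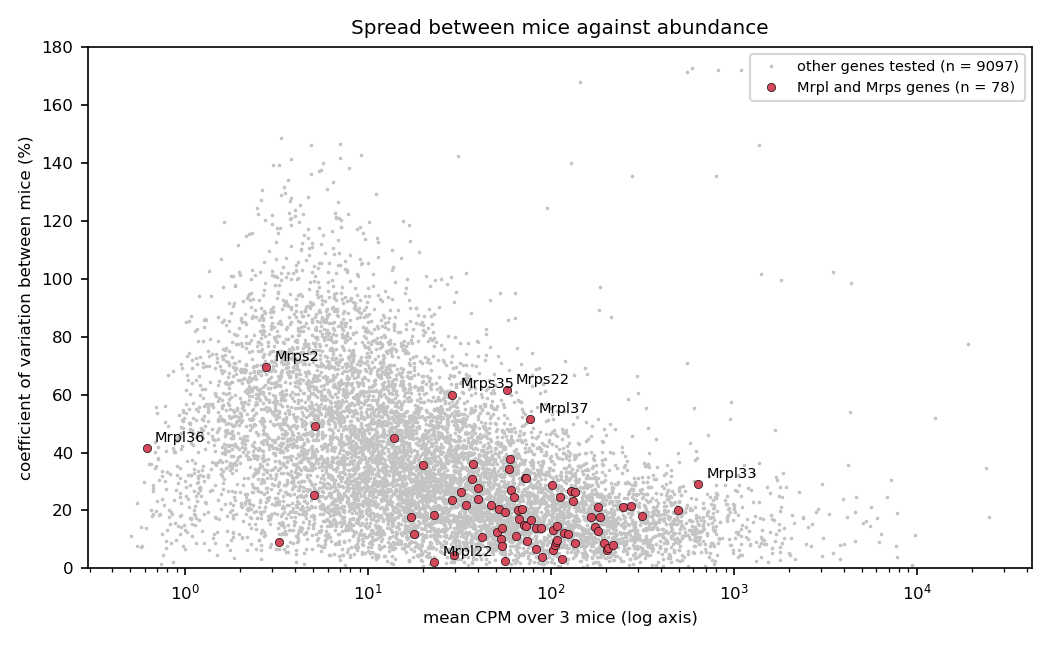
Coefficient of variation between the 3 mice in percent against mean CPM (log axis) for the 78 Mrpl and Mrps genes and the other genes tested. The median of the members was 18.0%, and Mrps2, Mrps22, Mrps35 and Mrpl37 were the 4 above 50%.

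The spread between mice was narrower for the members than for genes in general. The median coefficient of variation between mice was 18.0% for the members and 30.2% for all genes tested. Abundant genes vary less, so the genes within the middle 50% of member levels (40.6 to 117 CPM) were set apart. There the median was 14.6% for 38 members and 21.7% for 1643 genes, the members included. The members' median log2 ratio to the abundance trend was -1.02, against -0.41 for all genes tested, and 54 of 78 (69.2%) lay below the trend, against 59.6% of all genes. The highest library was at least 2-fold the lowest in 9 members (11.5%), against 42.1% of all genes tested. Within the middle 50% of member levels it was 5.26% of 38 members and 19.8% of 1643 genes. The lists most like the members were about as narrow, with medians of 16.9% for oxidative phosphorylation subunits and 18.1% for cytosolic ribosomal proteins, of which 6.85% and 2.41% reached 2-fold. The 9 members were Mrpl1, Mrpl36, Mrpl37, Mrpl38, Mrps2, Mrps5, Mrps22, Mrps27 and Mrps35, and the widest was Mrps2 at 5.58-fold. Mrpl22 at the tunnel exit had the smallest spread, 2.15%, followed by Mrps25 at 2.53% and Mrpl17 at 3.36%.

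More members were highest in mouse 2 than in either other mouse. Mouse 2 was highest for 42 of 78 members, where 33.5% of all genes tested were highest there. Mouse 3 was highest for 26 (34.2% of all genes) and mouse 1 for 10 (32.2% of all genes). The lowest value was in mouse 3 for 32 members (33.8% of all genes), in mouse 1 for 28 (29.2%) and in mouse 2 for 18 (36.9%). Among large-subunit members 31 of 51 were highest in mouse 2, and among small-subunit members 10 of 26. The difference between the subunits was not tested.

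**Figure D4:**
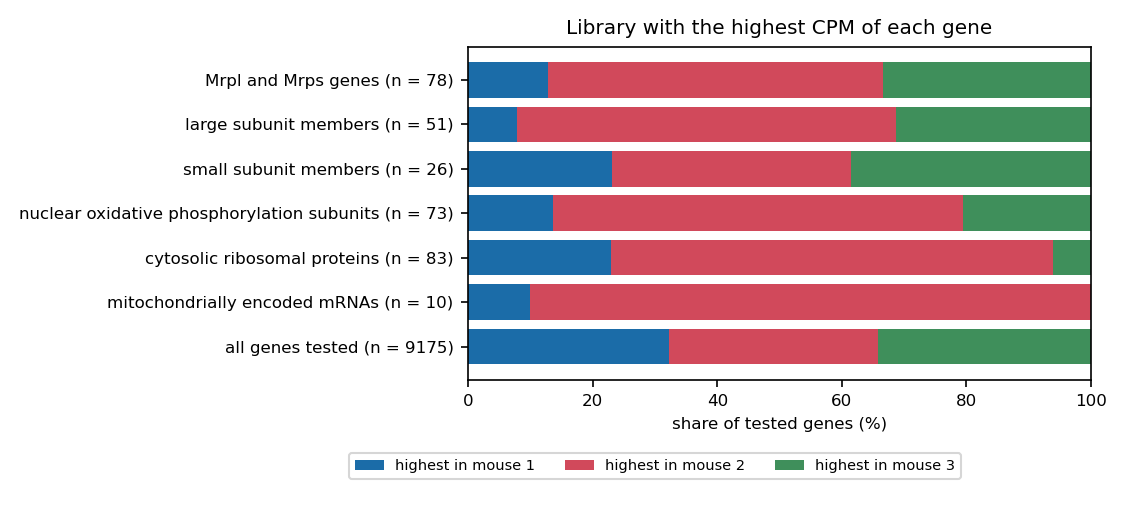
Share of the tested genes of each list whose highest CPM was in mouse 1, 2 or 3, in percent, with the number of tested genes in brackets. Mouse 2 was highest for 42 of 78 Mrpl and Mrps genes, 48 of 73 oxidative phosphorylation subunits and 59 of 83 cytosolic ribosomal proteins.

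The displacement of mouse 2 was small. The median member deviated from its mean over the 3 mice by -0.06, 0.12 and -0.06 on the log2 scale in mice 1, 2 and 3, against 0.03, -0.01 and 0.01 for all genes tested. Mouse 2 was also highest for 48 of 73 oxidative phosphorylation subunits, 59 of 83 cytosolic ribosomal proteins and 9 of 10 mitochondrial mRNAs tested, so the pattern was not peculiar to the members. The library of mouse 2 was the smallest. Summed ILC2 marker levels were 7754, 5798 and 6818 CPM in mice 1, 2 and 3, lowest in mouse 2. Summed levels of NK cell and ILC1 markers, of which 2 of 5 were detected (Gzma and Ncr1), were 8.47, 243 and 55.0 CPM. Most of this was Gzma, with 7.19, 229 and 48.2 CPM. Klrb1c (0.0441, 6.54 and 2.95 CPM) and Prf1 (0, 5.63 and 0.230 CPM) were, like Gzma, highest in mouse 2. Ncr1 (1.24, 2.10 and 3.57 CPM) was highest in mouse 3, and Tbx21 had 0 counts in mice 1 and 3. Myeloid markers, of which only Lyz2 was detected and Adgre1 and S100a8 had 0 counts, summed to 21.3, 37.7 and 25.9 CPM. Epithelial markers, of which only Epcam was detected and Cdh1 had 0 counts, summed to 29.4, 3.75 and 25.8 CPM. The part of depth and of these markers in the pattern was not tested. Without the immunoglobulin genes in the table the median deviation of mouse 2 was 0.13.

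Deviations of single members went with the length of the principal transcript only weakly. The Spearman coefficient across the 78 members was 0.02 in mouse 1, -0.25 in mouse 2 and 0.26 in mouse 3, against 0.12, 0.01 and -0.12 across 8597 genes tested. Members are not independent of each other, and the coefficients are given as a description.

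Head-to-head neighbours of the members were mostly lower per length than the members, and most protein-coding genes lay below the median member. The pairs described were singled out after their values were seen. Of the 33 head-to-head members, Mrpl46 and Mrps11 face each other, and 30 of the other partners had a row in the table. Of those 30 neighbours 14 were detected (38.0% of all protein-coding genes were), and the member was higher per kb of summed exon in 25 pairs. The median member stood at the 79.1th percentile of detected protein-coding genes, so most detected genes lay below it. Most protein-coding genes were not detected in every library. The count of 25 of 30 is therefore not read as a trait of the neighbours. Mrps12 (81.3, 120 and 135 CPM) starts 172 bases from Sars2, the mitochondrial seryl-tRNA synthetase gene, which had 0.882, 1.54 and 1.15 CPM. Mrpl54 starts 26 bases from Apba3, which had 1.15, 0.171 and 0.844 CPM. Mrps18c starts 29 bases from Helq, a helicase gene, which had 0.265, 1.71 and 6.79 CPM. Per kb of summed exon the means were 108 against 0.359 for Mrps12 and Sars2, 264 against 0.249 for Mrpl54 and Apba3, and 231 against 0.576 for Mrps18c and Helq. In each of these pairs every mouse had the member far above its neighbour.

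**Figure D5:**
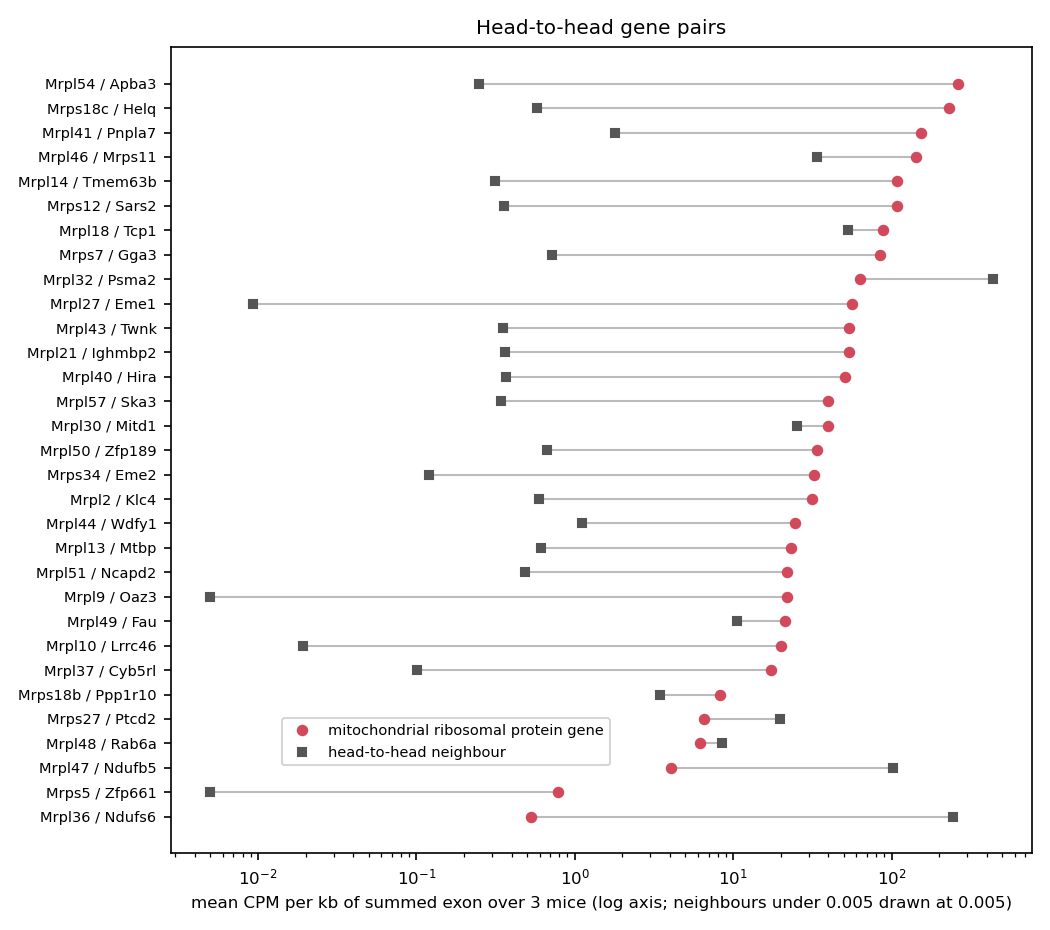
Mean CPM per kb of summed exon over 3 mice (log axis) of mitochondrial ribosomal protein genes (circles) and of the protein-coding gene that starts head to head with each (squares); neighbours under 0.005 are drawn at 0.005. The member was higher in 25 of 30 pairs with a gene outside the group, and most protein-coding genes lay below the median member. The row of Mrpl46 and Mrps11 joins a pair of members.

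In 5 pairs the neighbour was higher. Mrpl36 overlaps Ndufs6, a complex I subunit gene, by 29 bases, and had 0.441, 0.910 and 0.499 CPM against 239, 235 and 181 CPM for Ndufs6. Mrpl47 overlaps Ndufb5, another complex I gene, by 615 bases, and had 16.5, 20.3 and 16.8 CPM against 492, 596 and 436 CPM. Mrpl32, 75 bases from the proteasome gene Psma2, had 294, 379 and 271 CPM against 1458, 1942 and 1408 CPM. Per kb of summed exon the neighbours Ndufs6, Ndufb5 and Psma2 stood at 243, 102 and 436, against 0.531, 4.04 and 63.2 for Mrpl36, Mrpl47 and Mrpl32, and each was higher in every mouse. The other pairs were Mrps27 with Ptcd2, which encodes a mitochondrial RNA-binding protein, and Mrpl48 with Rab6a. Per kb of principal transcript Mrpl48 was above Rab6a (11.8 against 9.88), and Mrpl18, above Tcp1 per kb of summed exon (88.4 against 53.4), was below it (101.4 against 109.7), so the count stayed at 25. In the GENCODE M21 annotation the members Mrpl46 and Mrps11 overlap by 412 bases. Their RefSeq spans on chromosome 7 (78775341 to 78783089 and 78783131 to 78792988) do not overlap. Mrpl46 had 188, 213 and 205 CPM (143 ± 8.91 CPM per kb) and Mrps11 had 48.0, 78.8 and 92.4 CPM (33.6 ± 10.5 CPM per kb), and their ranges did not overlap.

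Because the library kit does not mark strand, reads from overlapping genes on opposite strands cannot be told apart. Exons of 45 members overlapped no other gene, and 10 members had more than 20% of their exon length overlapped. These shares count genes on either strand, and overlaps on the same strand cannot be told apart by strand either. The largest overlaps were in Mrpl53 (88.0%), Mrps34 (77.8%) and Mrps25 (69.8%). Protein-coding genes in them were Gm42688 (same strand) for Mrpl53, Nme3 (same) and Mapk8ip3 (opposite) for Mrps34, and Nr2c2 (opposite) for Mrps25. The values of Mrpl53, Mrps34 and Mrps25, 46.9, 67.0 and 56.3 CPM on average, are therefore less certain in this respect than those of members without overlap. The 45 members without overlap had a median log2 level of 4.90, against 4.80 for all 78.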

How the data were processed

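RNA of sorted ILC2s was sequenced from 3 mice, 1 library each, made per the labels with a Clontech SMARTer Ultra Low Input V4 kit. The authors deposited raw read counts per Entrez gene ID, as whole numbers without normalization. Per the submitters' processing notes, CASAVA 1.8.2, STAR 2.3.0 and the mm10 build were used, and the counting program, its annotation and its rule for multiply mapped reads were not given in the sources used here.

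Of 27179 IDs, 25275 were named from the RefSeq table of GRCm38.p6. Library totals were 17819551 to 26374248 counts. Each pair of libraries differed by a chi-square of 133 to 226 per degree of freedom, so none was taken for a copy. Counts were scaled to CPM with TMM factors from edgeR (4.0.16, R 4.3.3) and divided by summed exon length from GENCODE M21. Log values are log2(value + 0.5). A gene was detected at 1 CPM in every library. Genes that passed filterByExpr (minimum count 10) entered an intercept-only quasi-likelihood fit, whose quasi-dispersions were tested against the abundance trend (upper-tail F test, Benjamini-Hochberg over 9175 genes, threshold 0.05). The test was tested on simulated data. Neighbours, exon overlaps and shared 50-base words came from the same annotation.

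Named members are the 6 highest and 6 lowest detected by CPM per kb, those not detected, the 6 with the highest ratio to the trend and those with an assigned role, and of other lists the 3 highest and 3 lowest were eligible. Others were named after their values were seen. The gene group, which is defined by symbol, and the lists were chosen with earlier results of these data known. Alternatives were other normalizations, limma (3.58.1), DESeq2 (1.42.0) size factors, a robust prior, filters, pseudocounts, lengths, and leaving out immunoglobulin genes or each mouse.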

Additional observations from a re-analysis of the deposited data

How the results depend on the processing

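No paired analysis was possible because all 3 libraries form 1 group. With 0 of 78 members called by edgeR, no alternative called any, and over 28 named members the lowest Benjamini-Hochberg adjusted p was 0.236. The count among all genes was 17, and became 27 at a mean of at least 5 CPM, 0 with a robust prior, 1 when immunoglobulin genes were left out and 13 to 31 without each mouse in turn (31 without mouse 1). Members detected were 73 at 5 CPM and 76 to 77 without each mouse. The members' median log2 ratio to the trend, -1.02, became -2.07 to -1.59 without each mouse, where 1 residual degree of freedom remains. The principal-transcript length was added after the data were seen. The median log2 level of the members, 4.80, became 6.196 without division by length, 5.07 with the longest transcript, 5.43 with the principal transcript and 4.90 for members without overlap (4.77 to 4.83 without each mouse). Large minus small subunit, 0.08, became -0.27 with the principal transcript, 0.82 for members without overlap and 0.23 with means (0.00 to 0.12 without each mouse). Bacterial counterpart minus mitochondria-specific, 0.12, became 0.51 undivided, 0.38 with the longest and 0.91 with the principal transcript, and -0.19 for members without overlap (0.03 to 0.18). The difference from oxidative phosphorylation subunits, -2.61, kept its direction at -2.18 undivided, -2.87 with the longest and -3.02 with the principal transcript and -2.20 with means (-2.69 to -2.50). The difference from cytosolic ribosomal proteins, 0.41, became 0.70, 0.13 and -0.0199 in the same order of lengths and 0.10 with means (0.26 to 0.50). The cause of each shift beyond its length or member set was not tested. Other normalizations and pseudocounts moved no main result beyond the spread between mice or, for counts, 1.5 times. Among values of named members 469 held and 59 moved. Depth limits statements on Mrpl36, which rests on 10 to 16 counts per library.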
